A study of Homo sapiens with 2 samples.

Results

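Clustered C/EBPβ peaks are described here: peaks near gene starts whose middle lay within 1000 bases of the middle of another listed peak on the same chromosome. They were found in the authors' list of peaks in HL-60 cells that overexpress C/EBPβ, and 2090 of the 7029 listed peaks met the rule (29.7%, exact 95% binomial interval 28.7 to 30.8). HL-60 is a human leukaemia cell line labelled as myeloblast, and no label limits the line to 1 clone or names the promoter that drives C/EBPβ. Both libraries of the series came from the overexpressing cells: 1 C/EBPβ immunoprecipitation and 1 input, for which no antibody was used. The peak list belongs to the immunoprecipitated library, which has no replicate, and cells without overexpression were not analysed here. Peak positions chose the clustered peaks, so spacing, number and position are given as descriptions with no test, and intervals cover counting error over peaks only.

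C/EBPβ, a transcription factor of the basic leucine zipper class, binds DNA as a dimer, with itself or with related proteins such as other C/EBP factors and ATF4. Its preferred palindrome is TTGCGCAA, and dimers with ATF4 can bind the composite letters TGATGCAA. In myeloid cells the factor takes part in macrophage and granulocyte gene expression and in emergency granulopoiesis. In ChIP-seq, fragments pile up around bound sites, and a peak caller reports enriched stretches as 1 peak or as several depending on how deep the dip between them is and on its joining settings.

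The promoter letters of genes at clustered peaks are shown first, because they include the palindrome that the factor prefers. The window searched was the 250 bases before the start of each gene in RefSeq's promoter table of build GRCh38.p14. Of 1153 genes with a clustered pair, meaning neighbouring clustered peaks both paired with the gene, 897 had an entry there. TTGCGCAA, which reads the same on both strands, was present in 6 of these windows (0.669%, 95% interval 0.246 to 1.45). It was present in 16 of 3824 windows of genes with listed peaks but no clustered pair (0.418%, 95% interval 0.239 to 0.679), and in 30 of all 27195 windows (0.11%, 95% interval 0.0744 to 0.157). Of those 30 windows, 22 belonged to genes with a listed peak (73.3%, 95% interval 54.1 to 87.7), while 17.4% of all windows did. The 6 genes with a clustered pair are shown with 80 bases around the palindrome, which is in capitals. They were chosen after the matches were known.
SMAD6, chr15:66702153-66702232, + strand: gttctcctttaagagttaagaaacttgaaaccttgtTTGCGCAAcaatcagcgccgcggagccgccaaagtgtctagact
FNBP4, chr11:47767410-47767489, - strand: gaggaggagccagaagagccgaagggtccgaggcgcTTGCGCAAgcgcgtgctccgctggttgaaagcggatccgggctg
DBI, chr2:119366789-119366868, + strand: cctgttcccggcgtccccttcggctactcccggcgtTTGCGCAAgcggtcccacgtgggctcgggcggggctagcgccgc
COTL1, chr16:84618197-84618276, - strand: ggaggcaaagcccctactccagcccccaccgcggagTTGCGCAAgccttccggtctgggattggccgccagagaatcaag
ZBTB44, chr11:130314980-130315059, - strand: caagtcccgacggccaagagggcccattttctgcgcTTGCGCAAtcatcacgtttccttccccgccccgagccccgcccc
CISD1, chr10:58268958-58269037, + strand: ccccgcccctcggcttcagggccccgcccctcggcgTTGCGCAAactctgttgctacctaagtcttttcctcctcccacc

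SMAD6, an inhibitor of bone morphogenetic protein signalling, had a clustered peak of 579 bases with its middle at −134 bases from a listed start, and FNBP4, a formin-binding protein gene, one of 240 bases at 5 bases. Distances run in genome direction, so a negative one points to lower positions in hg19 whichever way the gene runs. Provided that RefSeq's start is the start in the list, the palindrome lies inside a clustered peak at 4 of the 6 genes on the strand RefSeq gives: SMAD6, FNBP4, DBI and COTL1. DBI, the acyl-CoA-binding protein gene, had its nearest clustered peak at −106 bases, and COTL1, a gene for an actin-binding protein, at 189 bases. ZBTB44, a zinc finger gene, had clustered peaks at 354 and −573 bases. CISD1, which encodes a mitochondrial iron-sulphur protein, had its 3 clustered peaks at −1659, −1951 and −2699 bases, and at ZBTB44 and CISD1 the palindrome lies outside them.

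The wider pattern TTNNGCAA, which also matches the palindrome, was found on either strand in 70 of the 897 windows (7.8%), against 8.55% of windows of other listed genes and 9.12% of all windows. TGATGCAA was found in 6 windows (0.669%), against 0.497% and 0.816%. The looser TGATGNAA, which includes it, was found in 12 windows (1.34%), against 1.94% and 3.18%. Of all windows with TTNNGCAA, 16.0% belonged to genes with a listed peak, as did 11.3% of those with TGATGCAA. For TGATGNAA it was 9.93%. All 3 lie below the 17.4% of all windows, unlike the 73.3% for TTGCGCAA. Windows of genes with a clustered pair were richer in G and C, with a median of 65.6%, against 63.6% for other listed genes and 58% for all windows, and the part of base composition in these shares was not tested. A match here is a description of letters only. HERPUD1, a gene of the endoplasmic reticulum stress response, GOT1, a cytosolic aspartate aminotransferase gene, and PPP1R15B, which encodes the constitutive partner of the eIF2α phosphatase, are shown with 80 bases around TGATGCAA on either strand in capitals. HERPUD1 was picked by the naming rule, and GOT1 and PPP1R15B after the matches were known. ARID5B, LYRM4 and PLEKHH3 also held TGATGCAA and are not shown, so the genes shown do not stand for all 6.
HERPUD1, chr16:56931930-56932009, + strand: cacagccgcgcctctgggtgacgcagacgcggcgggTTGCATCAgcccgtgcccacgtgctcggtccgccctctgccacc
GOT1, chr10:99430779-99430858, - strand: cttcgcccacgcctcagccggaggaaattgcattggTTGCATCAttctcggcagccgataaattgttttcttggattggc
PPP1R15B, chr1:204411988-204412067, - strand: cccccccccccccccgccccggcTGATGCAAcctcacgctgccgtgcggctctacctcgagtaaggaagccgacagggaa

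HERPUD1 had 3 clustered peaks, at −96, 577 and 1446 bases. GOT1 had 2, at 33 and 766 bases, and PPP1R15B had 2, at 203 and −527 bases. On RefSeq's strand and with the same proviso, TGATGCAA lies inside a clustered peak at HERPUD1 and PPP1R15B and outside at GOT1, and at 3 of all 6 genes that hold it. Among the genes named below, the clustered peak covered at least 250 bases on both sides of a listed start at 2 of the 60 genes that have an entry in the promoter table, SIRPB2 and DLEU2. Their full windows are shown because the peak spans them on either strand if the starts are the same. SIRPB2 holds none of the motifs, and the capitals in DLEU2 mark a TTNNGCAA match 54 to 47 bases before the start.
SIRPB2, chr20:1491421-1491670, - strand: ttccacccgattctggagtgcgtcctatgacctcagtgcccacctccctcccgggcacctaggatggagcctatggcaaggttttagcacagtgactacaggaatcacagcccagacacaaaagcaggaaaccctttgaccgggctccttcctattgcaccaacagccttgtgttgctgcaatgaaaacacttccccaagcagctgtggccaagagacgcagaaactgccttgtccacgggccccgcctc
DLEU2, chr13:50125542-50125791, - strand: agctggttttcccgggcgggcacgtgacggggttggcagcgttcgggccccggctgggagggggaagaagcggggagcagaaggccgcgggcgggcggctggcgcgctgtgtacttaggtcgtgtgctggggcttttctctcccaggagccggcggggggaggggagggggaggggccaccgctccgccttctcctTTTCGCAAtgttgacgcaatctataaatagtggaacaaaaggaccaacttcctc

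The 2090 clustered peaks formed 1163 neighbouring pairs and, when neighbours were chained, 927 runs. Of these, 739 runs held 2 peaks, 151 held 3, 30 held 4, 4 held 5, 2 held 6 and 1 held 7. The 188 runs of at least 3 peaks held 612 of the clustered peaks. The median distance between the middles of neighbours was 535 bases, with 25th and 75th percentiles of 394 and 722 and a smallest value of 205. The closest band held few consecutive pairs, with 29 under 250 bases apart. From 250 bases on they mostly thinned with distance. There were 495 consecutive pairs 250 to 500 bases apart, 385 at 500 to 750, 254 at 750 to 1000 and 179 at 1000 to 1250. Farther out, 63 lay 2000 to 2250 bases apart and 26 lay 3000 to 3250. No peak was narrower than 146 bases and no gap of a clustered pair was below 51, which limits how close middles can be. The limit of 1000 bases therefore falls within a decline with no break at it. The pairs just inside it were at SRXN1, USP3 and MALT1, with 1000, 996.5 and 994.5 bases, and those just outside at RASAL1, GCHFR and ANKRD42, with 1001.5, 1002 and 1006.5 bases.

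**Figure D1:**
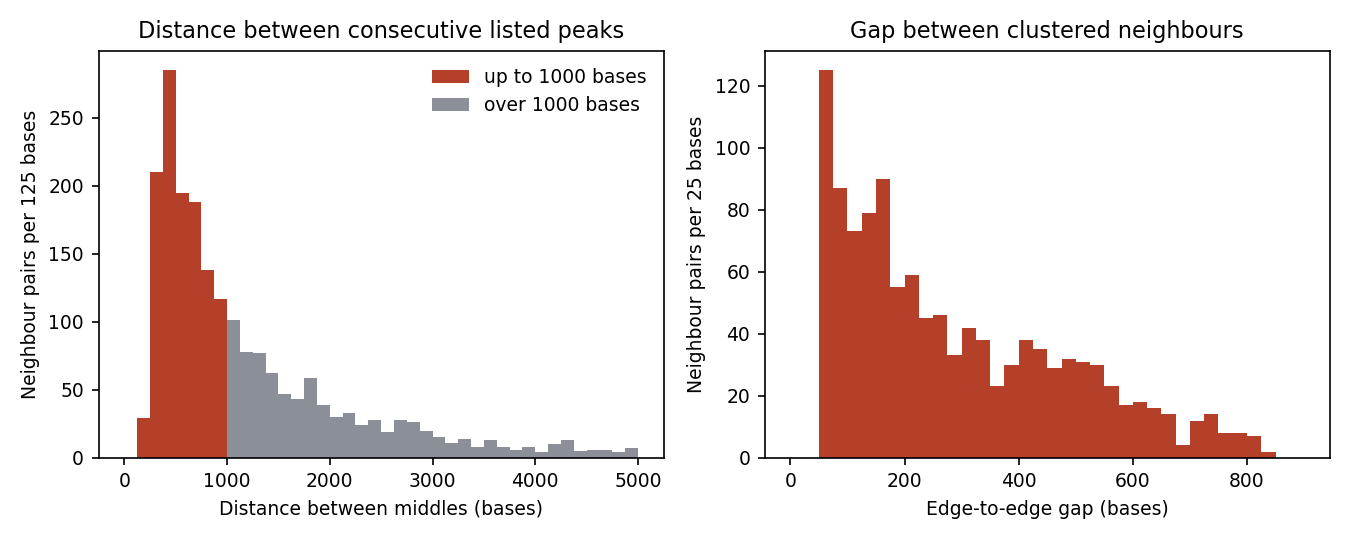
Left, number of consecutive listed peak pairs by distance between middles in bases, coloured by the limit of 1000 bases; right, edge-to-edge gap of the 1163 clustered pairs in bases. Spacings decline with no break at 1000 bases, and no gap is below 51 bases.

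A minority of clustered neighbours lay under 100 bases apart, edge to edge. The gap from the end of one peak to the start of the next had a median of 233 bases, and 212 pairs had a gap under 100 bases (18.2%, 95% interval 16.0 to 20.6). No gap was below 51 bases, and 5 pairs stood at exactly that value. They lay at RB1, the retinoblastoma tumour suppressor gene, with its divergent transcript RB1-DT, and at BLOC1S6, CTDP1, DLEU1 and PRDM15. No listed peak was narrower than 146 bases, and 168 clustered peaks (8.04%) and 396 other peaks (8.02%) had exactly that width. The closest pair of middles, 205 bases apart, was at BLOC1S6, a gene for a subunit of a lysosome-related organelle complex, with peaks of 158 and 150 bases at −23 and 182 bases from its start. Pairs within 229 bases followed at ZNF34, PPP1R18, ZNF837, TTC32, RB1-DT with RB1, SEPTIN2, ARMC5, MIR5193 and PRDM15. At these 10 loci peaks were 146 to 203 bases wide, and at 7 of them a listed start lay between the middles. At RB1 the left peak sat −184 bases from the RB1 start and the right peak at 37 bases. RBL1, a pocket protein gene related to RB1, had a pair 232 bases apart, at −131 and 101 bases.

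Running numbers in the peak names gave the same order. All 1163 clustered pairs had consecutive numbers. Both peaks of each pair were paired with a shared transcript, so any peak between them would also have been listed. That result was thus fixed by how the list was made. All 714 listed pairs spaced 1000 to 3000 bases also had consecutive numbers. Of the 927 runs, 772 (83.3%) had an unlisted number directly before or after them. Peak numbers reached 26024 for 7029 listed peaks, so most numbers were unlisted. The matching share for other listed peaks was not computed, and how far away an unlisted peak lies is not known. Since the list ends 3000 bases from a start, a run can go on beyond what is listed.

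Clustered and other peaks had nearly the same widths. The median was 228 bases for clustered peaks (order-statistic 95% interval 223 to 234) and 229 for other peaks. The 90th percentiles were 443 and 439 bases. Peaks over 500 bases made up 6.99% of clustered and 6.5% of other peaks, and peaks over 1000 bases 0.431% and 0.425%. Width is bounded within a cluster, because the neighbour's edge limits it, so these values were not tested. Within a pair the wider peak was a median 1.47 times as wide as the narrower, and in 266 pairs (22.9%) at least 2 times. Widths of neighbours showed almost no rank correlation across pairs (rho 0.03, 1163 pairs from 1 library, some sharing a peak). For consecutive peaks spaced 1000 to 5000 bases it was 0.03 over 852 pairs. Of 1153 pairs with unequal widths and distances, the wider peak was nearer a start in 622 (53.9%, 95% interval 51.0 to 56.9).

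The widest clustered peak, of 1309 bases, lay at DLEU2, the noncoding host gene of microRNAs miR-15a and miR-16-1, on chromosome 13 at 50699313 to 50700622. Wide clustered peaks also lay at TFAP4, a helix-loop-helix factor gene, with 1179 bases, NFKBIA, which encodes the NF-κB inhibitor IκBα, with 1153, and OAZ1, an inhibitor of polyamine synthesis, with 1152. Each had a narrower neighbour at a gap of 65 to 237 bases. At NFKBIA the wide peak sat at −582 bases and its neighbour of 257 bases at −1524, and at OAZ1 the wide peak sat at 1260 bases and its neighbour of 596 bases at 321. The TFAP4 peak had a neighbour on each side, of 372 and 336 bases.

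To place the clusters relative to genes, each peak was assigned its nearest listed start. Clustered peaks lay within 1000 bases of a start in 77.8% of cases (95% interval 75.9 to 79.5), against 67.3% of other peaks (95% interval 65.9 to 68.6). Within 250 bases the shares were 35.1% and 38.5%, and 416 clustered peaks (19.9%) and 1271 other peaks (25.7%) covered a start. The share of listed peaks that were clustered was 27.8% in the first 250 bases from a start, highest at 41.9% between 500 and 750 bases, and 11.2% in the outermost 250 bases. Near the edge of the window a neighbour farther out would not be listed, which touches 126 clustered peaks (6.03%) and 682 other peaks (13.8%) over 2000 bases from a start.

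**Figure D2:**
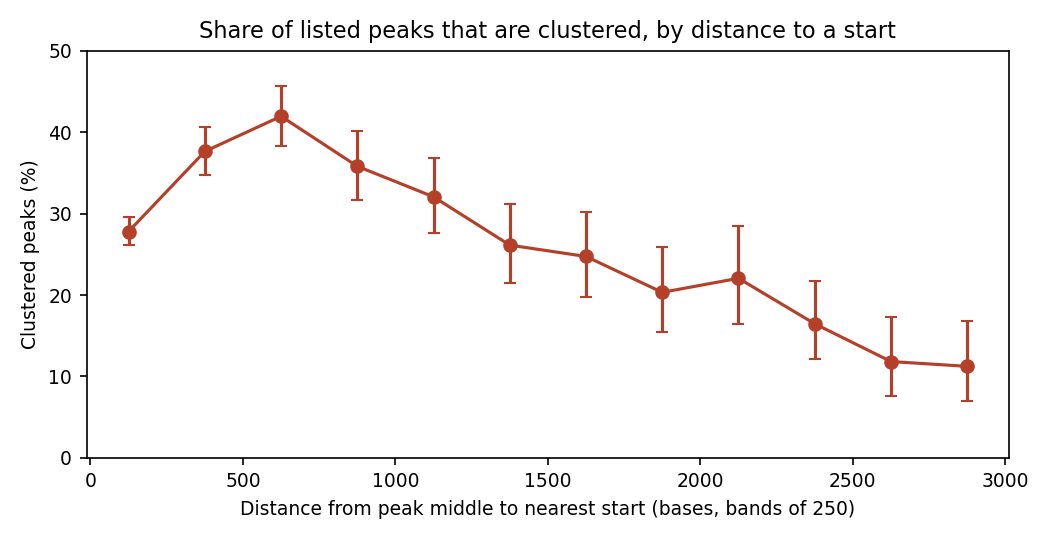
Percent of listed peaks that are clustered in bands of 250 bases by distance from the peak middle to the nearest start; bars are exact 95% binomial intervals. The share is 27.8% next to the start, 41.9% between 500 and 750 bases and 11.2% in the outermost band.

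A listed start lay between the middles of 463 of the 1163 pairs (39.8%, 95% interval 37.0 to 42.7). Pairs with a start between them were spaced by a median of 567 bases, and pairs without one by 516. Where exactly 1 start lay between the middles, it fell in the gap between the peaks in 177 of 385 pairs (46.0%, 95% interval 40.9 to 51.1) and within a peak in 208. Gaps made up 51.6% of the summed distance between those middles, and within a pair the gap took a median of 48.6%. Of the 927 runs, 561 (60.5%, 95% interval 57.3 to 63.7) contained a start. At least 2 genes started inside 87 runs (9.39%), and at least 2 protein-coding genes inside 48 (5.18%). Pairing with 2 or more genes was found for 25.4% of clustered peaks and 20.0% of other peaks. The nearest gene was protein-coding for 89.9% and 87.7%, a long noncoding RNA gene for 7.03% and 7.84%, and a microRNA gene for 1.82% and 2.13%.

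Runs of 4 or more peaks were found at 37 loci, and 33 of them contained a listed start. Peaks covered 31.8% to 91.7% of the span, lowest at PANK1 and highest at MYC. The longest in peak number was at PKM, the pyruvate kinase gene of the last step of glycolysis, on chromosome 15 at 72519330 to 72523961. Its 7 peaks were 213 to 453 bases wide, with gaps of 197 to 525 bases, and peaks covered 48.8% of the run. One peak sat 7 bases from a start, and the run contained 2 PKM starts.

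HMGN2, a nucleosome-binding protein gene, had a run of 6 peaks on chromosome 1 at 26796854 to 26799786. The peaks were 219, 265, 243, 450, 562 and 206 bases wide and covered 66.3% of the run. The start lay in a gap of 112 bases, between peaks at −274 and 344 bases, and thus had peaks on either side and none over it.

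Runs of 5 peaks lay at FOXP1, KCNQ5, ANXA2R-OT1 and the pair ZFP36L2 and LINC01126. FOXP1, a forkhead factor gene with roles in lymphoid and myeloid cells, had its run on chromosome 3 at 71631558 to 71634036, with peaks at −1202, −451, 39, 304 and 816 bases from their nearest starts. A second FOXP1 start carried a separate clustered pair, at −406 and −2 bases, and the other 2 of its 9 listed peaks had no neighbour within 1000 bases. KCNQ5, which encodes a voltage-gated potassium channel, had peaks at −1390, −770, −65, 282 and 997 bases on chromosome 6. ZFP36L2, an RNA-binding protein gene that promotes mRNA decay, shared its run on chromosome 2 at 43451446 to 43454382 with the noncoding gene LINC01126, and the 4 peaks nearest ZFP36L2 lay at −2106, −1480, −644 and −215 bases. ANXA2R-OT1 is a noncoding transcript on chromosome 5, with peaks of 195 to 401 bases.

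**Figure D3:**
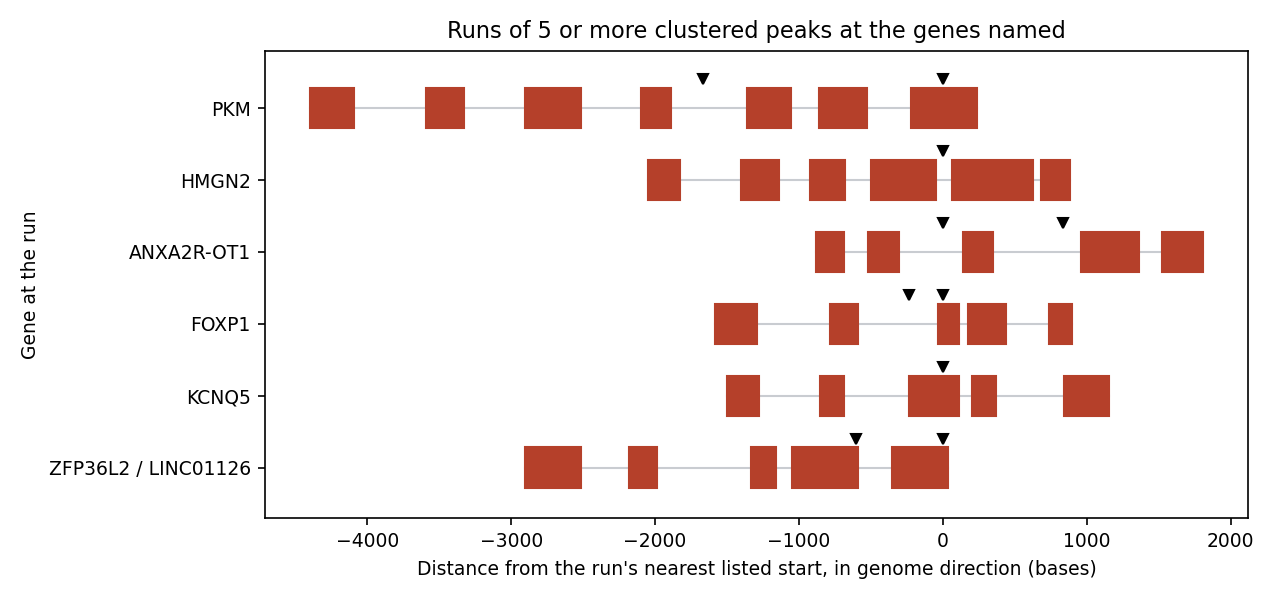
Runs of 5 or more clustered peaks at the genes named, each drawn to scale in bases from the listed start nearest to one of its peaks, in genome direction; red boxes are peaks and black triangles listed starts. PKM has 7 peaks and HMGN2 has 6, and the HMGN2 start lies in a gap.

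Genes of blood cell development stood among the 30 runs of 4 peaks. RUNX1, a core-binding factor gene, had peaks of 274, 769, 185 and 217 bases at −1139, −379, 525 and 1357 bases on chromosome 21. Of its 9 listed peaks, 8 were clustered, the rest of them in 2 pairs around its other start. RUNX2, a related factor gene, had 4 peaks on chromosome 6, at −5, 547, 914 and 1734 bases, all but the first at higher positions than the start. LMO2, a bridging protein gene of haematopoietic transcription factor complexes, had peaks of 274, 499, 226 and 334 bases at −882, −223, 667 and 1530 bases on chromosome 11.

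NFIL3, which encodes a basic leucine zipper repressor, had peaks of 474, 299, 440 and 156 bases on chromosome 9, one of them −2 bases from a start, and its run contained 2 starts. OSM, the cytokine oncostatin M, had peaks of 193, 534, 250 and 304 bases at −1182, −750, 20 and 543 bases on chromosome 22. MYC, a growth-promoting factor gene, had peaks of 678, 793, 1039 and 322 bases on chromosome 8, with gaps of 137, 59 and 61 bases, and peaks covered 91.7% of the 3089 bases. DLEU2 came next in coverage at 82.2%. Copy number at MYC is not in the list, and its part in peak width and coverage was not tested. A further 2 listed MYC peaks, of 522 and 1186 bases, had gaps of 153 and 162 bases to the next peak but middles 1007 and 1094 bases from it, so the rule left them out.

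CD38, an ectoenzyme gene induced during myeloid differentiation of this line, had peaks at −38, 499, 1336 and 1740 bases on chromosome 4. SIRPB2, a gene of the signal regulatory protein family, had them at −1695, −709, −55 and 529 bases on chromosome 20. CCND2, a D-type cyclin gene, had a peak at 19 bases and 3 more at higher positions, the last 2 nearer to the start of the antisense gene CCND2-AS1. CCNG2, an atypical cyclin gene linked to growth arrest, had peaks at −590, −145, 523 and 907 bases, with the start in a gap. The start was thus covered by a peak at CD38, SIRPB2 and CCND2 and lay in a gap at CCNG2.

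**Figure D4:**
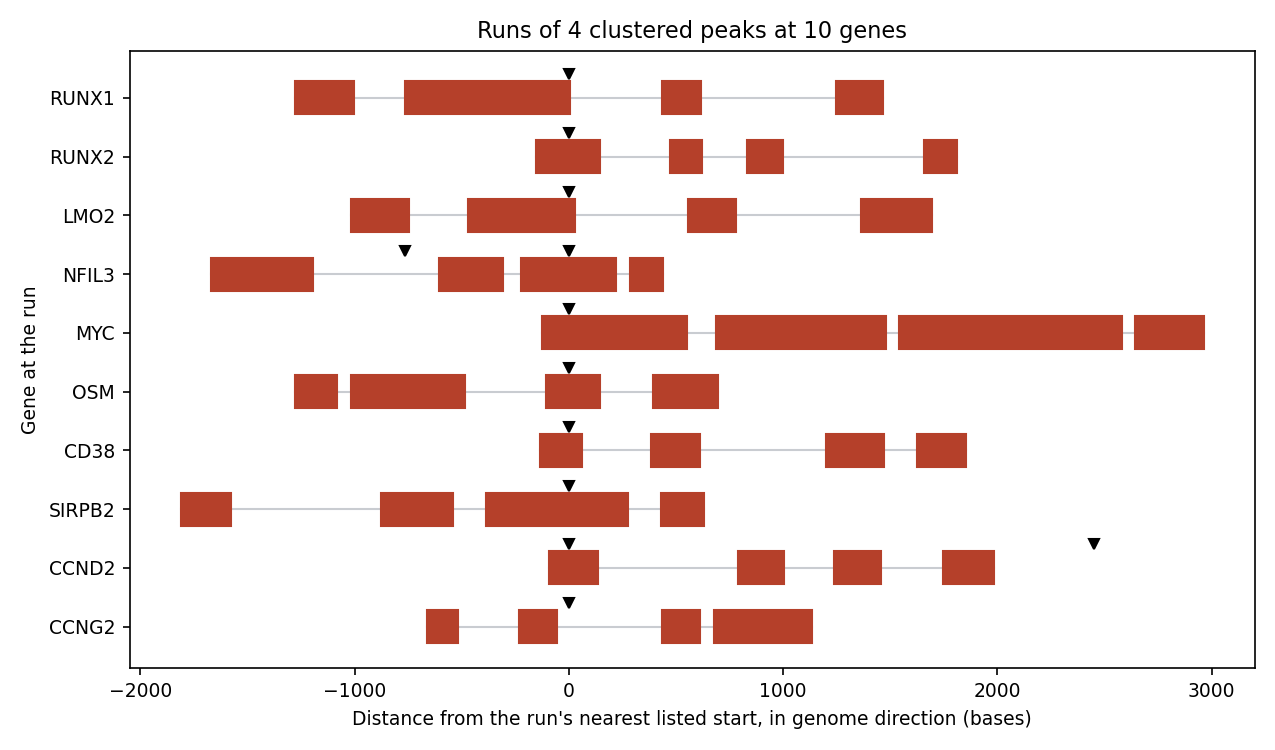
Clustered runs of 4 peaks at the 10 genes named beside it, drawn to scale in bases from the listed start nearest to one of the peaks, in genome direction; red boxes are peaks and black triangles listed starts. MYC peaks almost tile their run, while RUNX2 and CD38 peaks extend to one side of the start.

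The 10 genes drawn were picked from the 30 after their values were seen. The other runs of 4 peaks lay at genes of varied function. They included WDR74, a ribosome biogenesis gene, MRPL38, a mitochondrial ribosomal protein gene, WBP4, a spliceosome gene, TUBB, a β-tubulin gene, UGP2, an enzyme of UDP-glucose synthesis, PANK1, of coenzyme A synthesis, NBR1, an autophagy receptor gene, PCBP1, an RNA-binding protein gene, YWHAG, a 14-3-3 protein gene, and TPD52L2. DLEU2 and LINC-PINT are noncoding. At ARHGDIA, CYP1B1, RAB11FIP1 and ROCK1P1 the run contained no listed start. ROCK1P1 is a pseudogene copy of part of ROCK1, so the peaks there are uncertain.

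Replication-dependent histone genes, which lie packed together and are transcribed in S phase, had many clusters: 41 of the 63 peaks nearest to them were clustered (65.1%, 95% interval 52.0 to 76.7). They made up 1.96% of clustered and 0.445% of other peaks. Runs of 4 peaks lay at H3C2 with H2AC4, H2BC4 with H2AC6, H2BC11 with H2AC11, and H2BC12 with H2AC12, all on chromosome 6. Each of these 4 runs contained the starts of 2 histone genes. Histone genes are similar in sequence, and no source used here says how reads that match several copies were placed.

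Gene lists were then read for genes with a clustered pair. Of 19388 genes annotated as protein-coding in RefSeq (autosomes and X), 972 had one (5.01%), which was 18.9% of listed genes and 62.8% of genes with at least 2 listed peaks. Among the 972 genes the median was 2 clustered peaks and a smallest neighbour distance of 487 bases. The ATF4 and unfolded protein response list had 8 of 30 genes with a clustered pair (26.7%, 95% interval 12.3 to 45.9) and these 8 had a median of 2 clustered peaks. Such medians cover only genes with a pair, for which 2 is the lowest possible value, and over all listed genes of each list the median was 0. DDIT3, the gene of the stress-induced C/EBP factor CHOP, had 3 of its 5 peaks clustered, at −1755, −1275 and −775 bases, while the peak nearest a start, at 278 bases, was not. ATF4 itself had a pair 252.5 bases apart on chromosome 22, with middles at −117 and 130 bases from their nearest starts and a gap of 53 bases. MTHFD2, a mitochondrial folate enzyme gene, had peaks at 717 and 1065 bases. The other members were EDEM1, PHGDH, SLC7A1 and SLC7A5. CTH and PPP1R15A had 2 listed peaks and no clustered pair.

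Among C/EBP family and basic leucine zipper partner genes, 5 of 20 had a clustered pair (25%, 95% interval 8.66 to 49.1; median 2 clustered peaks). All 3 peaks of CEBPA, the early granulocyte factor gene, were clustered, on chromosome 19 at −1216, −637 and −197 bases and with widths of 174, 171 and 370 bases. At CEBPB, the overexpressed gene, the pair was the one farthest along, at 1456 and 1854 bases, with widths of 146 and 242 bases. CEBPB has no introns, and reads of an introduced copy and of the gene itself cannot be told apart in the list. Its peaks at −2843 and 385 bases had no neighbour within 1000 bases. BATF3 completes the 5 with DDIT3 and ATF4. CEBPE had 2 peaks and FOSL2 had 3, with no clustered pair paired with the gene; the outermost FOSL2 peak had a neighbour 950 bases away that is not paired with FOSL2.

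Haematopoietic transcription factor genes had 6 of 33 with a clustered pair (18.2%, 95% interval 6.98 to 35.5; median 4 clustered peaks): RUNX1, FOXP1, RUNX2, LMO2, PRDM1 and GFI1. PRDM1, a repressor gene of plasma cell and myeloid differentiation, had 2 separate pairs at different starts on chromosome 6, at −157 and 156 bases and at 62 and 557 bases. BCL6 and ETV6 had 2 peaks each and none clustered. Feedback regulators of signalling had 5 of 26 (19.2%, 95% interval 6.55 to 39.4; median 3 clustered peaks). SOCS2, a cytokine signalling inhibitor gene, had 3 clustered peaks of 513, 376 and 184 bases, SPRY1, an inhibitor of receptor kinase signalling, had 3, and TNFAIP3, which encodes the NF-κB inhibitor A20, had peaks of 338 and 427 bases at −306 and 464 bases. NFKBIA and ZFP36L2 are described above. DUSP2 and PIM1 had 2 peaks and no clustered pair.

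Of the 34 cell cycle and replication genes, 9 had a clustered pair (26.5%, 95% interval 12.9 to 44.4; median 2 clustered peaks), among them CCND1, CCND2 and CCND3, all of the D-type cyclin genes. AURKA, a mitotic kinase gene, had peaks at 185 and 456 bases, and RB1 and RBL1 are given above. CDK6 and CDKN1A had 2 peaks and none clustered. Cytosolic ribosomal protein genes had 6 of 75 (8.0%, 95% interval 2.99 to 16.6; median 2 clustered peaks), such as RPS19, at −202 and 57 bases, and RPL23A, at −516 and 0 bases.

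Genes of myeloid effector functions had shares whose intervals include the 5.01% of all protein-coding genes. The intervals of the ribosomal list and of the lymphoid and erythroid list include it too. Inflammatory mediators had 2 of 29 (6.9%, 95% interval 0.846 to 22.8; median 3 clustered peaks), OSM and the neutrophil chemokine gene CXCL8, whose peaks of 293 and 158 bases lay at 51 and 793 bases on chromosome 4. VEGFA had 2 peaks spaced more than 1000 bases. Myeloid receptors and adhesion molecules had 3 of 40 (7.5%, 95% interval 1.57 to 20.4; median 2 clustered peaks). CSF3R, the G-CSF receptor gene, had peaks at −327 and 34 bases, CXCR4, a chemokine receptor gene, at −2871 and −2397 bases, and ITGB2, the β2 integrin gene, at −57 and 479 bases from their nearest starts. C5AR1 and CD14 had 2 peaks and none clustered. None of the 35 granule and oxidase genes had a clustered pair, an upper exact limit of 10.0%, though 17 were listed. PRTN3, the proteinase 3 gene, had 3 peaks and RAC2, an oxidase subunit gene, had 2, all more than 1000 bases apart. Among lymphoid and erythroid markers, 1 of 33 had a clustered pair (3.03%, 95% interval 0.0767 to 15.8): FCRL1, a B cell receptor-like gene, with 3 clustered peaks of 851, 177 and 224 bases. GYPC had 2 peaks and none clustered. Since a pair needs at least 2 listed peaks, these shares follow in part the number of peaks listed: against 62.8% of all protein-coding genes with at least 2, a pair was found for 8 of 10 in the ATF4 list (80%), 9 of 12 in the cell cycle list (75%), 6 of 8 ribosomal (75%), 2 of 3 inflammatory (66.7%) and 5 of 8 feedback genes (62.5%). It was found for 5 of 10 genes in the C/EBP list (50%), 1 of 2 lymphoid and erythroid markers (50%), 6 of 13 haematopoietic factor genes (46.2%), 3 of 8 receptor genes (37.5%) and 0 of 2 granule genes. No difference between lists was tested.

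**Figure D5:**
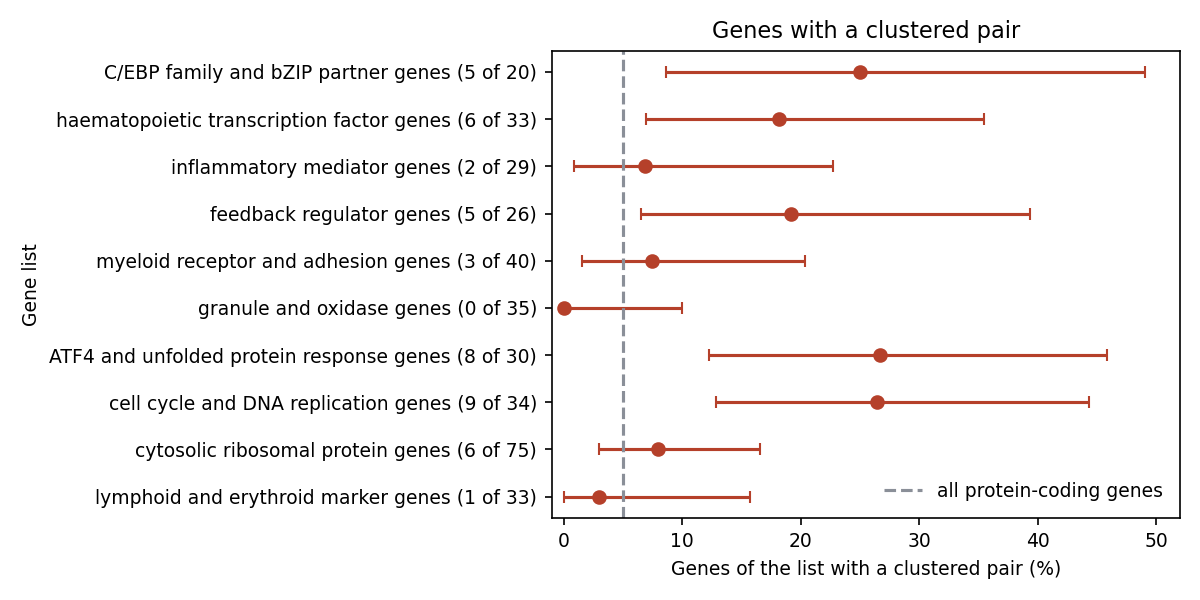
Percent of genes in each of 10 lists with a clustered pair, with exact 95% binomial intervals; the dashed line is the 5.01% of all protein-coding genes. The ATF4, cell cycle and C/EBP lists lie at 25% to 26.7%, and the granule and oxidase list at 0.

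Chromosomes differed in the share of listed peaks that were clustered. Chromosome 18 was highest, with 82 of 173 (47.4%, 95% interval 39.8 to 55.1) in 37 runs, followed by chromosome 13 with 79 of 205 (38.5%, 95% interval 31.8 to 45.6) and chromosome 6, where the main histone clusters lie, with 160 of 435 (36.8%). Chromosome X was lowest at 19 of 120 (15.8%, 95% interval 9.81 to 23.6), next to chromosome 14 at 29 of 160 (18.1%). Histone genes, described above, account for part of the chromosome 6 runs, and all of these values come from 1 library. The list does not hold the copy number of each chromosome in these cells, and its part in these shares was not tested. Clustered peaks come at least 2 at a time, while the intervals treat peaks as independent.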

How the data were processed

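ChIP-seq was done on HL-60 cells overexpressing C/EBPβ, with 1 immunoprecipitated and 1 input library. Per the submitters' processing notes, BWA 0.7.10, SAMtools and MACS2 2.1.1 were used with build hg19, with no role or setting given; no source used here gives the peak threshold or the use of input. The authors deposited 17637 rows, each giving 1 peak with 1 RefSeq transcript whose start is within 3000 bases. The deposited score depends on distance only and was not used. Peak height and read depth are unknown, so the precision behind a peak cannot be given; PCR reads without molecular identifiers are not independent molecules.

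One row per peak was kept, sorted by chromosome and start, and chained at up to 1000 bases between middles. Starts were taken as the middle minus the deposited distance, and those within 2 bases were merged. Of 12532 transcripts, 12330 were named by accession, 130 by symbol, 55 by older symbol in RefSeq's GRCh38 table, and 17 kept the deposited symbol. Positions are printed as deposited, with no statement of whether they count from 0 or 1. Shares carry exact (Clopper-Pearson) intervals. Chaining was checked on 2407 simulated peaks and gave 100% of them a run of the right size. Simulated spacings were set up to the limit within runs and above it between runs, so this checks the code only. Python 3.11.15, pandas 2.3.3, NumPy 2.4.6, SciPy 1.17.1 and Matplotlib 3.10.9 were used. No test was made, since there is 1 library.

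Genes named are those of runs of 4 or more peaks, the 10 closest pairs, the 5 smallest gaps, the 5 longest runs, the 5 widest clustered peaks, the 3 pairs on either side of the limit, and up to 4 clustered and 2 unclustered genes per list. Results for 1 gene that meets this rule are not reported here. Others were chosen after their values were seen. The clustered peaks and lists were chosen with earlier results of these data known.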

Additional observations from a re-analysis of the deposited data

How the results depend on the processing

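Each value was recomputed with 6 other choices, giving 42 values, of which 17 moved and 25 did not. A count was taken as moved beyond 1.5 times the reported one, and a share outside the 95% interval of the reported one. The width difference has no interval of its own. The only width interval is that of the clustered median, 223 to 234 bases, which leaves out error in the other peaks' median. By the measure for counts, 2897 clustered peaks in 1228 runs at 2000 bases did not move, although their share did. With middles up to 500 bases apart there were 1010 clustered peaks (14.4%) in 486 runs, 38 of them of 3 or more peaks; a start lay between 36.5% of pairs, and the clustered median width was 22 bases below the others' (a difference of -22). With 2000 bases the share was 41.2%, with 322 runs of 3 or more and a start between 43.6% of pairs. With an edge-to-edge gap of up to 1000 bases it was 34.4%, and the width difference was 7 bases. With peaks at or above the median width of 229 bases there were 559 clustered peaks (15.9%) in 262 runs, 31 of 3 or more; the wider peak was nearer a start in 50.7% of pairs, and the width difference was 10 bases. A lower limit can only lower the number and share of clustered peaks, and a higher or edge-to-edge limit can only raise them. Removing narrower peaks can only lower their number. For the other shifts the cause was not tested. Leaving out chromosome 8 or peaks without a protein-coding transcript moved none of the 7 values. The difference in median width of -1 base thus changed sign with the choice made. No paired analysis was possible because the groups have 1 library each, and peak strength, which the list does not hold, could not be used as a stricter threshold.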
